A study of Rattus norvegicus with 23 samples.

Results

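The data compare small RNA of rat PC12 cells that carried an empty vector, 24 h after the culture was split, with small RNA of the same line 6 h after splitting. PC12 is a pheochromocytoma line with chromaffin-like, neuroendocrine properties. The libraries were chosen by their labels for line and time, which gave 3 libraries at 24 h and 2 at 6 h, 5 of the 23 in the series. Both groups had been stably transfected with empty pcDNA3 and selected with G418, and the labels name no other agent. The number of clones behind the line is not given, and the labels do not say that replicates were separate cultures. The p-values below therefore rest on library-to-library spread, and that spread could be technical. The rest of the series holds the vector line at 3 d and 10 d and a second PC12 line at all 4 times. The second line expresses Flag-tagged α1ACT, a transcription factor encoded in the calcium channel gene Cacna1a, with 11 glutamine repeats. In bulk RNA, a change in the number of cells of one kind and a change in RNA per cell cannot be told apart.

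A microRNA (miRNA) gene is transcribed into a hairpin whose stem is cut into a short duplex, and each strand of the duplex comes from one arm of the hairpin, called 5p or 3p. One strand, the guide, is usually kept in an Argonaute protein, and the other, the passenger, is mostly degraded, so the arms of a hairpin differ in level. Guides find target mRNAs by pairing through a short seed near their 5′ end. In endocrine and chromaffin-like cells miR-375 is a characteristic guide, and miR-210 is widely known as a miRNA that rises when oxygen is low.

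The sequences below belong to the miRNAs on which the comparison turns and are taken from RefSeq (assembly GRCr8, 5′ to 3′). Capitals in mature sequences mark the seed, bases 2 to 8. The first set holds the 2 called passengers with a sequence in the table, the guides of the same hairpins, and 2 further passengers from the miR-23, miR-27 and miR-24 clusters. No sequence is shown for the remaining called miRNA, miR-674-3p.
miR-210-5p: aGCCACUGcccacagcacacug
miR-210-3p: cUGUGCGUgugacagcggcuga
miR-27b-5p: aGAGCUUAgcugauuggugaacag
miR-27b-3p: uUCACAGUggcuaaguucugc
miR-27a-5p: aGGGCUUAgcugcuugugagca
miR-23b-5p: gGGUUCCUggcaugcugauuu
The mature miR-210-5p lies at chr1:205755984-205756005 and miR-27b-5p at chr17:1819202-1819225, both on the minus strand. Mir210 lies within the bounds of the lncRNA gene LOC102553043, and Mir27b within those of the protein-coding gene Aopep, with strand not considered. A further miRNA gene, Mir3574, overlaps Mir210 on the opposite strand and has no entry in the count table, and the labels do not say whether counting used strand. In the hairpins below, capitals mark both mature arms, so that the called 5p arm and its partner can be seen in place.
Mir210: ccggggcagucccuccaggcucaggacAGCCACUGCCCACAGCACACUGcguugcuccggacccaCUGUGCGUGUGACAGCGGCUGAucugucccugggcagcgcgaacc
Mir27b: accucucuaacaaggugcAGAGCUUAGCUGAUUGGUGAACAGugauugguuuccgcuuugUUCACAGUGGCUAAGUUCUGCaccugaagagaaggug
The next set holds miRNAs with small p-values that were not called, and the last 4 lines hold those with the smallest p for a difference between the lines, where the paired seeds are shared.
miR-423-5p: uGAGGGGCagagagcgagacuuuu
miR-92a-3p: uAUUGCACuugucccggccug
miR-342-5p: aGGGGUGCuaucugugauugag
miR-3099: uAGGCUAGaaagagguugggga
miR-149-5p: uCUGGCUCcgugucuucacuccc
let-7d-3p: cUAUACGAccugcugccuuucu
miR-99b-5p: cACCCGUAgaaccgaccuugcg
miR-100-5p: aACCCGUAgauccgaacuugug
miR-125a-5p: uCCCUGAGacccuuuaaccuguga
miR-125b-5p: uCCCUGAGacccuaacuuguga

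Depth was 2997128, 2590185 and 1557147 miRNA counts in the 24 h libraries, against 2266850 and 2231255 in the 6 h libraries, within a range of 448557 to 5070120 over the series. One 6 h library carries a doubt over its name. The authors deposited a second count table, made with another tool, and 21 of 23 libraries were nearest to the column of their own name in it, over 154 well-counted entries. The library named 6 h replicate 2 was instead nearest to the column named 10 d replicate 2 of the vector line, and that library was nearest to 6 h replicate 2, so the pair is exchanged in one of the tables. The names of the main table were kept. With them, the deviations of 6 h replicate 2 from the mean of all libraries correlated with those of 6 h replicate 1 at r = 0.435 over 267 miRNAs, and with 10 d replicates 1 and 3 at r = -0.263 and -0.198. Its highest correlation with another vector-line library was with 24 h replicate 2, at r = 0.45. Under the same names, 10 d replicate 2 correlated with 10 d replicates 1 and 3 at r = 0.268 and 0.166. With 6 h replicate 1 it correlated at r = -0.0404. The 6 h group has only 2 libraries, so the called miRNAs are also given with the names exchanged and without 6 h replicate 2. The entries let-7c-2-3p and let-7a-1-3p stand for identical mature sequences, and each library has counts under only 1 of these names. Replicates 1 and 3 at 24 h and replicate 1 at 6 h use let-7c-2-3p, and the replicates numbered 2 use let-7a-1-3p, so each class of naming holds both times. These replicates numbered 2 are also the pair with r = 0.45 above. The fit held no term for naming class. No value is given for either entry.

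The identity of the line was checked against its markers. The neuroendocrine miRNAs took between 16.2% and 17.3% of counts at 24 h and between 17.0% and 19.2% at 6 h, led by miR-375-3p and miR-182. The miR-7 members of that list were scarce. Of them, miR-7a-5p had 6, 2 and 5 counts at 24 h, against 7 and 5 at 6 h. The muscle miRNA miR-133a-3p, the red-cell miRNA miR-451-5p and the leukocyte miRNA miR-142-3p had 0 counts in all 5 libraries. Other members of these lists had a few counts: miR-499-5p of muscle had 36, 24 and 17 counts at 24 h, against 21 and 16 at 6 h, and miR-142-5p, the other arm of the leukocyte hairpin, had 3, 9 and 6 counts at 24 h, against 5 and 3 at 6 h. Each remaining entry of the muscle and blood-cell lists had at most 4 counts in a library. Of the mesenchymal and endothelial markers, miR-145-5p was also at 0, while miR-143-3p stood at 1309, 857 and 1256 CPM at 24 h, against 1038 and 671 CPM at 6 h. This level overlapped between the groups. Of the same list, miR-126a-5p had 284, 191 and 141 counts at 24 h, against 163 and 142 at 6 h. Its other arm, miR-126a-3p, had 86, 45 and 65 counts at 24 h, against 74 and 54 at 6 h. For miR-199a-3p there were 31, 34 and 22 counts at 24 h, against 13 and 29 at 6 h. Among the epithelial markers, miR-203a-3p had the most counts, 1289, 1072 and 602 at 24 h, against 935 and 957 at 6 h. The epithelial miR-141-3p had 33, 15 and 21 counts at 24 h, against 25 and 14 at 6 h.

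Between 24 h and 6 h, 3 miRNAs were called as changed, and 0 when these groups were fitted without the other groups. The scarcer 5p arm of miR-210 rose to 2.23 times its 6 h level, whereas its abundant 3p guide was not called. The scarcer 5p arm of miR-27b fell to 0.697 times its 6 h level, and the 3p arm of miR-674, the more abundant of its pair, fell to 0.572 times. Of 413 named entries, 269 had enough counts to be tested, and the 3 called make up 1.12% of them, with 1 that rose (0.372%) and 2 that fell (0.743%) (edgeR's quasi-likelihood test, threshold of 0.05 after Benjamini-Hochberg adjustment). At an unadjusted p under 0.05 there were 33 (12.3%), of which 11 were higher at 24 h (4.09%) and 22 lower (8.18%). The libraries of the groups did not overlap for 86 miRNAs (32.0%), in 40 with 24 h above 6 h (14.9%) and in 46 with 24 h below 6 h (17.1%).

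Most of the miRNA population stayed close to its 6 h level. Among the 213 miRNAs that averaged 10 CPM or more (CPM being counts scaled to library size, here by the trimmed mean of M values, TMM), the median absolute log2 fold change was 0.168. In this set 19 miRNAs reached 0.5 and 1, miR-210-5p, reached 1. A further 6 miRNAs with an absolute log2 fold change of at least 1 had means under 10 CPM, and 0 of them were called by edgeR. Over all 269 the log2 fold change was positive in 143 and negative in 126, with a median of 0.02.

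**Figure D1:**
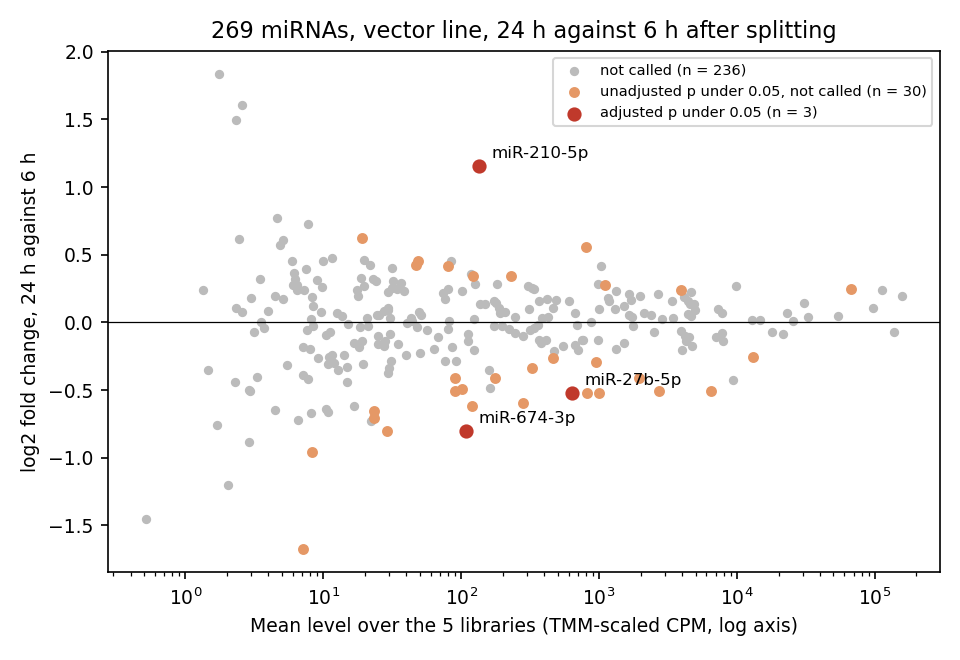
Log2 fold change between 24 h and 6 h in the vector line (y axis) against the mean level over the 5 libraries in TMM-scaled CPM (x axis, log scale), 1 point per miRNA. Of 269 miRNAs, 3 (red) had an adjusted p under 0.05: miR-210-5p above 0, miR-27b-5p and miR-674-3p below it.

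The hairpin Mir210 gives an abundant 3p guide and a scarce 5p strand. The 5p strand, miR-210-5p, stood at 133, 238 and 149 CPM at 24 h (388, 574 and 226 counts), against 70.8 and 85.2 CPM at 6 h (164 and 189 counts). Every 24 h library lay above both 6 h libraries, and 24 h replicate 2 was the highest. The means were 173 ± 56.7 CPM (SD, 3 libraries) at 24 h and 78.0 ± 10.1 CPM (SD, 2 libraries) at 6 h, and the log2 fold change was 1.15 (SE 0.229, 95% interval 0.682 to 1.63, edgeR adjusted p = 0.00868). The guide, miR-210-3p, averaged 4766 ± 438 CPM at 24 h and 4335 ± 321 CPM at 6 h, and the groups overlapped. Its log2 fold change was 0.14 (SE 0.147, edgeR adjusted p = 0.769), with an interval of -0.164 to 0.438.

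The call of miR-210-5p depended on both 6 h libraries and was kept without any 1 of the 24 h libraries. Without 6 h replicate 1 its log2 fold change was 0.99 (edgeR adjusted p = 0.291), and without 6 h replicate 2 it was 1.24 (adjusted p = 0.139). Without the highest library, 24 h replicate 2, it was 0.85 and still called (edgeR adjusted p = 0.0325). With the names of the doubtful pair exchanged it was 0.92 (edgeR adjusted p = 0.0955). The value stayed positive in all 20 alternatives and passed the threshold in 14. Within the let-7c-2-3p naming class the log2 ratio of 24 h to 6 h means was 0.99, and within the let-7a-1-3p class, with 1 library at each time, it was 1.48.

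The hairpin of miR-674 gives 2 arms of low level, of which 3p was the better counted. Here miR-674-3p stood at 75.2, 97.6 and 78.4 CPM at 24 h, against 126 and 167 CPM at 6 h. All 24 h libraries lay below both 6 h libraries, and 6 h replicate 2 was the highest. The log2 fold change was -0.80 (SE 0.185, 95% interval -1.18 to -0.426, edgeR adjusted p = 0.0198). The other arm, miR-674-5p, was at 8.44 ± 2.53 CPM at 24 h and 8.44 ± 3.99 CPM at 6 h. Without 6 h replicate 2 the value for miR-674-3p was -0.64 (edgeR adjusted p = 0.251), and with the names exchanged it was -0.23 (adjusted p = 0.878). It also missed the threshold without 24 h replicate 1 (-0.71, edgeR adjusted p = 0.197) and without 24 h replicate 3 (-0.76, adjusted p = 0.132). Within the naming classes its log2 ratio was -0.72 for let-7c-2-3p and -0.77 for let-7a-1-3p.

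The hairpin Mir27b gave the miRNA of highest mean level over the 5 libraries from its 3p arm, although miR-375-3p was higher in 6 h replicate 2, and a passenger, miR-27b-5p, from its 5p arm. The passenger stood at 565, 544 and 512 CPM at 24 h, against 729 and 824 CPM at 6 h. The 24 h libraries lay close together and below both 6 h libraries. Its log2 fold change was -0.52 (SE 0.123, 95% interval -0.774 to -0.269, edgeR adjusted p = 0.0198). The guide, miR-27b-3p, a regulator of lipid and vascular genes in other tissues, stood at 160742, 163625 and 172270 CPM at 24 h, against 145511 and 143595 CPM at 6 h. The groups did not overlap there either, with 24 h above 6 h, but the log2 fold change of 0.20 was not called (SE 0.115, edgeR adjusted p = 0.515). The call for miR-27b-5p was lost when any 1 of the 5 libraries was left out, with edgeR adjusted p between 0.0559 (without 24 h replicate 2) and 0.251 (without 6 h replicate 2). With the names exchanged its log2 fold change was -0.08 (edgeR adjusted p = 0.967), against -0.44 and -0.60 as log2 ratios within the let-7c-2-3p and let-7a-1-3p naming classes.

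Mir27b lies in a cluster with Mir23b and Mir24-1, and a paralogous cluster holds Mir23a, Mir27a and Mir24-2. Of the 10 tested products of these genes, 1 was called, miR-27b-5p. The passenger miR-23b-5p was the miRNA with the lowest fold change of all 269, at 4.46, 4.57 and 1.98 CPM at 24 h, against 11.2 and 13.5 CPM at 6 h. The groups did not overlap, but these levels rest on 13, 11 and 3 counts at 24 h and on 26 and 30 counts at 6 h. Its log2 fold change of -1.67 did not pass the threshold (SE 0.591, edgeR adjusted p = 0.279). The passenger of the paralog, miR-27a-5p, stood at 18.5 ± 3.43 CPM at 24 h and 29.9 ± 2.85 CPM at 6 h, a log2 fold change of -0.71 (SE 0.326, edgeR adjusted p = 0.351). None of the guides was called: miR-23b-3p had a log2 fold change of -0.07, miR-23a-3p 0.17, miR-27a-3p 0.16 and miR-24-3p 0.19, with edgeR adjusted p of at least 0.670 in each. The passenger of Mir24-2, miR-24-2-5p, stood at 252 ± 8.07 CPM at 24 h and 199 ± 2.47 CPM at 6 h (log2 fold change 0.34, edgeR adjusted p = 0.351).

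**Figure D2:**
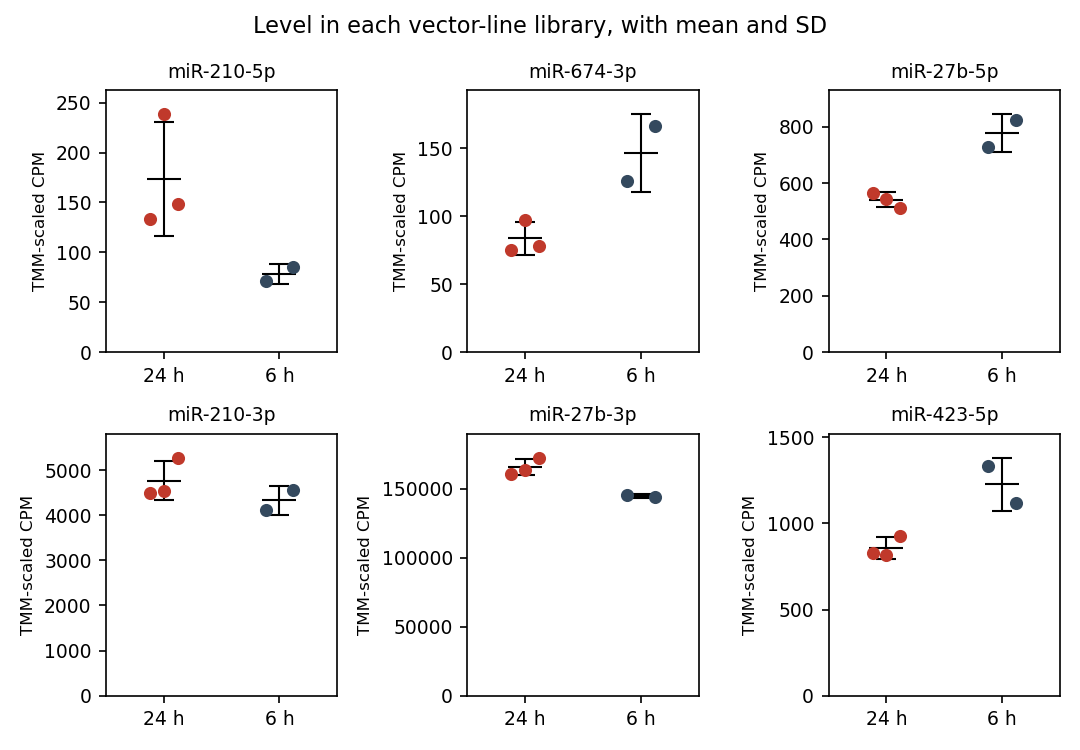
TMM-scaled CPM (y axis) of 6 miRNAs in each vector-line library at 24 h (red, 3 libraries) and 6 h (dark, 2 libraries), with bars for the mean and SD. The groups are apart for miR-210-5p, miR-674-3p, miR-27b-5p, miR-27b-3p and miR-423-5p and overlap for miR-210-3p.

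Set against the later times, the 3 called miRNAs took different courses. In the vector line miR-27b-5p averaged 776 CPM at 6 h and 540 CPM at 24 h, then 469 CPM at 3 d and 377 CPM at 10 d, and in the α1ACT line 658, 523, 433 and 338 CPM at these times. The means of miR-674-3p in the vector line were 146, 83.7, 77.5 and 79.3 CPM in order of time, so the step between 6 h and 24 h was larger than any later one. For miR-210-5p the vector line averaged 78.0 CPM at 6 h and 173 CPM at 24 h, then 85.4 CPM at 3 d and 112 CPM at 10 d. The 24 h mean was thus the highest of the 4, and the 3 d libraries, between 70.2 and 98.6 CPM, lay below all 24 h libraries. In the α1ACT line the highest mean of miR-210-5p was at 10 d, at 147 CPM, against 129 CPM at 24 h and 96.4 CPM at 6 h. The differences involving 3 d and 10 d were not tested here, and the 10 d mean of the vector line holds the library whose name is in doubt.

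**Figure D3:**
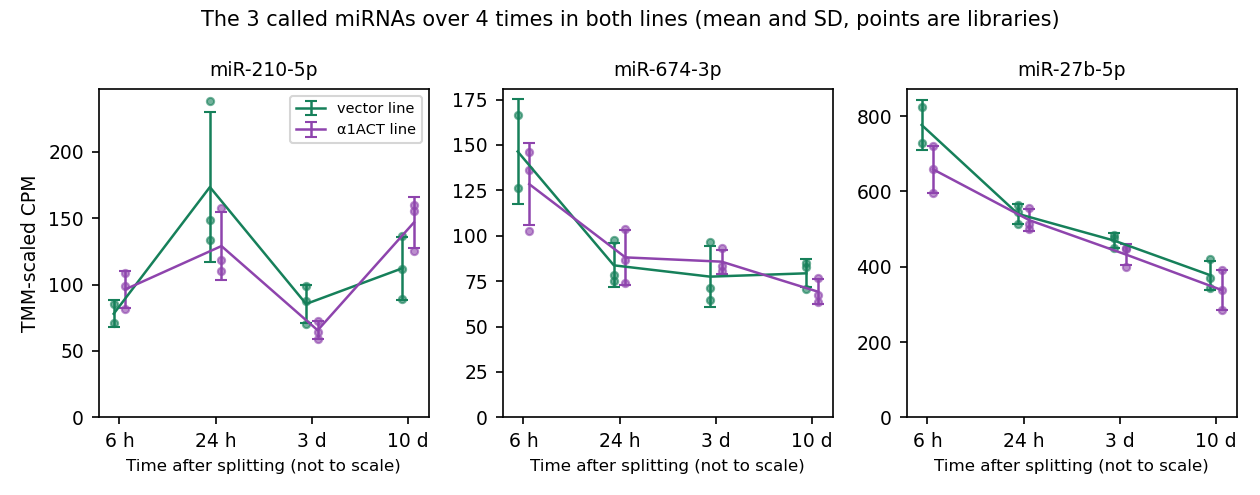
TMM-scaled CPM (y axis) of the 3 called miRNAs at 6 h, 24 h, 3 d and 10 d (x axis, not to scale) in the vector line (green) and the α1ACT line (purple). Points are libraries, lines join group means and bars are SD; miR-27b-5p is lower at each later time in both lines, and miR-210-5p has its highest vector-line mean at 24 h.

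The next 7 miRNAs by p, among those that averaged 10 CPM or more, were all lower at 24 h and were not called, with edgeR adjusted p between 0.216 and 0.300 and absolute log2 fold changes between 0.41 and 0.62. Closest to the threshold was miR-423-5p, encoded within the bounds of Nsrp1, with 826, 817 and 928 CPM at 24 h, against 1336 and 1118 CPM at 6 h. Its log2 fold change was -0.52 (SE 0.16, edgeR adjusted p = 0.216), and its other arm, miR-423-3p, had -0.19 (adjusted p = 0.593). A member of the oncogenic miR-17-92 cluster, miR-92a-3p, stood at 1621, 1899 and 1670 CPM at 24 h, against 2334 and 2265 CPM at 6 h (log2 fold change -0.41, SE 0.131). Its seed is shared with miR-25-3p, which averaged 7587 ± 269 CPM at 24 h and 8329 ± 393 CPM at 6 h (log2 fold change -0.13). Summed over the 4 tested miRNAs with this seed, the level was 9332 ± 384 CPM at 24 h and 10644 ± 347 CPM at 6 h.

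The other 5 of these 7 stem from hairpins of different origin. For miR-320-3p, made without the Drosha cut that most miRNAs need, levels were 225, 208 and 270 CPM at 24 h, against 376 and 329 CPM at 6 h (log2 fold change -0.60). The passenger miR-342-5p, from a hairpin within the bounds of Evl, stood at 78.6, 72.7 and 79.7 CPM at 24 h, against 123 and 96.4 CPM at 6 h (-0.51). The log2 fold change was -0.62 for miR-3099 and -0.41 for miR-149-5p, whose hairpin lies within the bounds of Gpc1. The passenger let-7d-3p stood at 595, 914 and 560 CPM at 24 h, against 984 and 1000 CPM at 6 h (-0.52), and 24 h replicate 2 was much nearer to the 6 h libraries than the other 24 h libraries were. Each of these 7 was past the threshold in at most 1 of 20 alternatives: miR-423-5p with library totals as scaling, miR-3099 with a term for replicate number, and let-7d-3p without 24 h replicate 2.

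The most abundant miRNAs differed little. Of the 10 with the highest levels, 9 had a positive and 1 a negative log2 fold change, and the largest in size was 0.25. That was miR-30a-5p, at 75471, 72234 and 68766 CPM at 24 h, against 64211 and 57425 CPM at 6 h. The groups did not overlap, but it was not called (SE 0.102, edgeR adjusted p = 0.351). The endocrine guide miR-375-3p averaged 135710 ± 5999 CPM at 24 h and 142477 ± 16396 CPM at 6 h (log2 fold change -0.07, 95% interval -0.275 to 0.134). The guide miR-10b-5p, encoded within the bounds of Hoxd4, had a log2 fold change of 0.24, let-7f-5p 0.11, let-7i-5p 0.14 and miR-22-3p 0.05. For miR-182 it was 0.04, for miR-16-5p 0.07 and for miR-26a-5p 0.01.

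Because guides with one seed can bind the same targets, levels were also summed by seed. The 9 tested let-7 guides with the seed GAGGUAG summed to 200136 ± 16941 CPM at 24 h and 191474 ± 20651 CPM at 6 h, and the groups overlapped. The miR-27 guides with UCACAGU, miR-27a-3p and miR-27b-3p, summed to 167339 ± 6080 CPM at 24 h and 146154 ± 1552 CPM at 6 h, where the groups were apart. Of the miR-30 guides with GUAAACA, miR-30a-5p, miR-30e-5p and miR-30c-5p summed to 83551 ± 4255 CPM at 24 h and 72258 ± 5319 CPM at 6 h, again apart. That sum is partial, because the tested guide miR-30d-5p had no single matched sequence and is left out. It averaged 17631 CPM at 24 h and 18563 CPM at 6 h (log2 fold change -0.07). The sums are given as a description with no test.

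The calls for single arms raised the question of how the arms of a hairpin moved relative to each other, a comparison chosen after seeing the data. In it, 76 hairpins had both arms tested, and the log2 ratio of 5p to 3p counts was compared with limma. The ratio changed for 3 hairpins (3.95%), and 9 had an unadjusted p under 0.05 (11.8%). Since the same counts gave the calls of the arms, these results are not independent of them. For miR-210 there were 33.7, 19.0 and 35.3 counts of the 3p guide per 5p count at 24 h, against 57.8 and 53.4 at 6 h. The 24 h libraries all had fewer guides per passenger, and the log2 ratio of 5p to 3p was higher by 0.97 (SE 0.223, limma adjusted p = 0.00596). For miR-27b there were 285, 300.4 and 336 guides per passenger at 24 h, against 200 and 174 at 6 h. Here the 24 h libraries all had more, and the log2 ratio of 5p to 3p was lower by a change of -0.72 (SE 0.162, limma adjusted p = 0.00596).

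The remaining hairpin with a changed ratio was miR-29b, of a family known for targeting collagen and other matrix genes. It had 48.1, 63.3 and 65.7 counts of 3p per 5p count at 24 h, against 27.1 and 22.2 at 6 h (log2 change of the 5p to 3p ratio -1.25, SE 0.317, limma adjusted p = 0.0123). Its 5p strand was scarce, at 5.89 ± 2.11 CPM at 24 h and 11.7 ± 0.0377 CPM at 6 h. The 3p sequence is made by both Mir29b1 and Mir29b2 whereas the matched 5p sequence is that of Mir29b2, so the ratio sets one hairpin against both. Across the 76 hairpins the scarcer arm was lower relative to the other at 24 h in 46 and higher in 30, with a median of -0.13 on the log2 scale. With the names of the doubtful pair exchanged, or without 6 h replicate 2, no ratio passed limma's threshold, with 7 at an unadjusted p under 0.05 in each case.

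**Figure D4:**
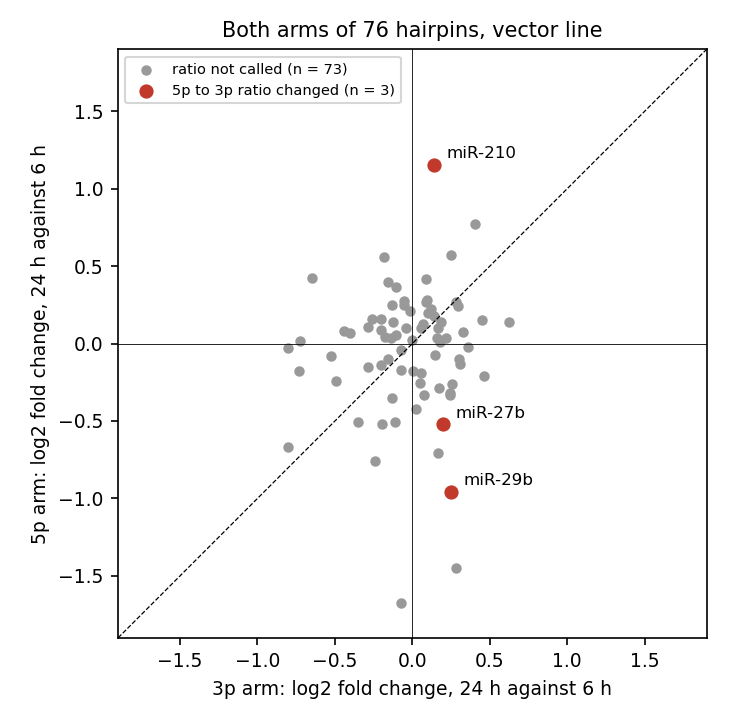
Log2 fold change between 24 h and 6 h of the 5p arm (y axis) against that of the 3p arm (x axis) for 76 hairpins, with the dashed line where both arms change alike. The 3 hairpins with a changed ratio (red) lie away from the line mainly along the 5p axis: miR-210 above it, miR-27b and miR-29b below it.

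Families and groups with known roles gave few calls, and few miRNAs were called at all (3 of 269 tested, 1.12%). Of 29 lists, 2 held a called member, and both members are described above: miR-210-5p among the 2 arms of the hypoxia-linked miR-210, and miR-27b-5p among the 10 products of the miR-23, miR-27 and miR-24 clusters. Counts at an unadjusted p under 0.05 are read against 12.3% of all tested. In the let-7 family, regulators of differentiation and growth, 2 of 19 had such a p, let-7d-3p (-0.52) and let-7i-3p (0.62), and both are passengers. The median log2 fold change was 0.0182 over the family, beside 0.0248 over all tested. In the miR-17-92 group and its paralogs, linked to proliferation, it was 2 of 17, miR-92a-3p and miR-106b-3p (-0.26), with a median of -0.09.

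The activity-linked miR-132, whose gene responds to the transcription factor CREB in neurons, had its guide miR-132-3p at 96.5, 86.8 and 79.0 CPM at 24 h, against 119 and 128 CPM at 6 h. The groups were apart, but the log2 fold change of -0.49 was not called (SE 0.195, edgeR adjusted p = 0.339). Its cluster partner miR-212-3p, with the same seed AACAGUC, overlapped between the groups (0.07). The p53-induced guides miR-34a-5p and miR-34c-5p share the seed GGCAGUG and averaged 54.2 ± 5.48 and 52.1 ± 6.96 CPM at 24 h, against 39.4 ± 2.25 and 38.9 ± 8.5 CPM at 6 h. Their log2 fold changes were 0.45 and 0.42, with edgeR's adjusted p at 0.351 for each, and only miR-34c-5p overlapped between the groups. They were the 2 of 5 tested p53-induced miRNAs with an unadjusted p under 0.05. The others had smaller log2 fold changes, 0.19 for miR-192-5p, 0.07 for miR-194-5p and -0.03 for miR-107-3p.

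Among cell-type lists, 0 of 8 neuroendocrine miRNAs had an unadjusted p under 0.05, and their median log2 fold change was -0.09. Of 21 neuronal miRNAs, 1 did, miR-344b-1-3p at 869 ± 67.9 CPM at 24 h and 1064 ± 168 CPM at 6 h (-0.29, edgeR adjusted p = 0.351). The neuronal miR-137-3p stood at 135 ± 19.6 CPM at 24 h and 111 ± 6.04 CPM at 6 h (0.28). Among the X-linked miR-322 and miR-503 products, which restrain the cell cycle in muscle and other cells, miR-322-5p stood at 1190 ± 45.5 CPM at 24 h and 984 ± 114 CPM at 6 h (0.27). The scarce miR-503-3p stood at 22.4 ± 2.96 CPM at 24 h and 39.1 ± 7.72 CPM at 6 h (-0.80), and edgeR's adjusted p was 0.371 and 0.304 for the pair. Of the mesenchymal and endothelial miRNAs, 4 of 4 tested had a positive log2 fold change, between 0.09 and 0.48, beside 143 of all 269. These 4 include both arms of miR-126a, and 1, miR-126a-5p, had an unadjusted p under 0.05. The summed share of that list in all counts was between 0.0903% and 0.141% at 24 h and between 0.0771% and 0.117% at 6 h. The growth-factor-responsive miR-21-5p averaged 3517 ± 112 CPM at 24 h and 3159 ± 72.1 CPM at 6 h (0.16, not called).

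**Figure D5:**
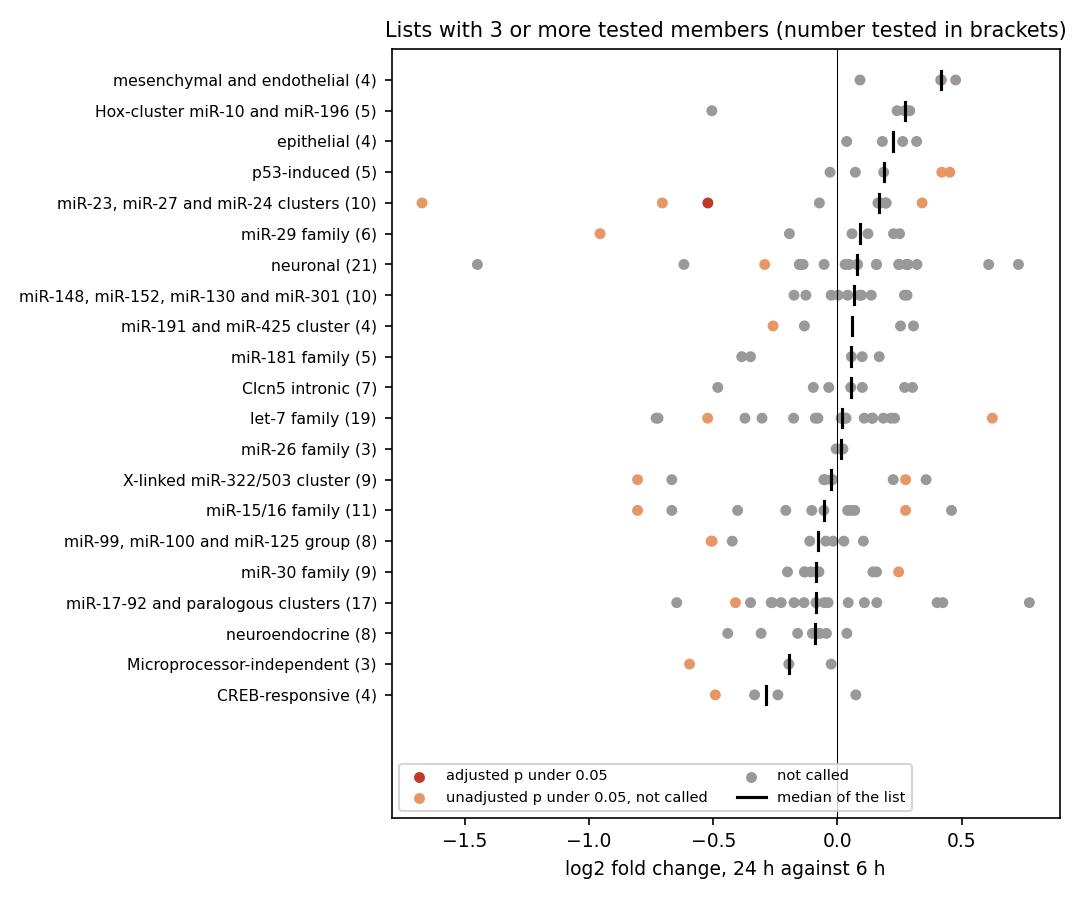
Log2 fold change between 24 h and 6 h (x axis) of the tested members of each list with 3 or more of them, 1 point per miRNA and a black bar at the list's median. Red marks the only called member in these lists, miR-27b-5p, and orange an unadjusted p under 0.05.

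The α1ACT line over the same interval had 28 called miRNAs (10.4% of 269), 7 higher (2.60%) and 21 lower (7.81%) at 24 h. A call in one line and none in the other does not show that the lines differ, so the difference of the changes was tested. By edgeR's quasi-likelihood test 0 of 269 differed (0%), and 8 had an unadjusted p under 0.05 (2.97%). DESeq2 called 2, let-7c-2-3p, whose counts are split by naming, and miR-99b-5p, and limma-voom called 0. Of the 28, 26 had the same sign in the vector line, but the share of equal signs over all 269 was not counted. In the vector line 13 of the 28 had an unadjusted p under 0.05, against 33 of all 269 (12.3%). Of the 28, 1, miR-674-3p, was called in both lines. The lines share no library, but they share the scaling and the estimate of spread.

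The miRNAs called in the vector line had the same direction in the α1ACT line. For miR-674-3p the log2 fold change was -0.80 in the vector line and -0.55 in the α1ACT line (edgeR adjusted p = 0.0356 in the α1ACT line). For miR-27b-5p it was -0.52 in the vector line and -0.33 in the α1ACT line, where edgeR's adjusted p was 0.0537. For miR-210-5p it was 1.15 in the vector line and 0.42 in the α1ACT line, a difference of 0.74 (edgeR unadjusted p = 0.0211, adjusted p = 0.948).

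The smallest p for a difference between the lines belonged to the ancient miR-99, miR-100 and miR-125 group, regulators of growth signalling and differentiation. For miR-99b-5p the vector line had 7210, 7754 and 9627 CPM at 24 h, against 11551 and 10433 CPM at 6 h. The α1ACT line had 6486, 6552 and 4701 CPM at 24 h, against 20178, 12851 and 19283 CPM at 6 h. All 24 h libraries lay below the 6 h libraries in both lines. The log2 fold change was -0.42 in the vector line and -1.56 in the α1ACT line, a difference of 1.14 (edgeR unadjusted p = 0.00146, adjusted p = 0.393). The difference was 1.04 for miR-100-5p, 0.88 for miR-125a-5p and 0.80 for miR-125b-5p, with edgeR adjusted p of 0.479, 0.869 and 0.948 in that order. Next by p came miR-374-3p, of another family. Its vector-line means were 332 CPM at 24 h and 344 CPM at 6 h, and its α1ACT-line means 445 and 311 CPM. In the vector line itself miR-125a-5p stood at 5543 ± 458 CPM at 24 h and 7884 ± 1921 CPM at 6 h (-0.51), and miR-125b-5p at 2330 ± 274 CPM at 24 h and 3304 ± 584 CPM at 6 h (-0.50). The other tested miRNA with their seed CCCUGAG, miR-351-5p from another cluster, averaged 4928 ± 581 CPM at 24 h and 4218 ± 221 CPM at 6 h (0.22). Without the 6 h replicate 2 of the α1ACT line, its lowest for miR-99b-5p at 6 h, 3 differences between the lines passed edgeR's threshold, for miR-125a-5p (1.17), miR-125b-5p (1.07) and miR-99b-5p (1.31), with adjusted p between 0.00104 and 0.0312.

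Base composition was compared as a description over the 248 tested miRNAs with a single RefSeq sequence. The correlation of GC content with the log2 fold change was r = -0.0844 (Spearman's rho -0.18) across these miRNAs, and r = -0.192 (rho -0.256) across the 197 of them that averaged 10 CPM or more. The miRNAs share libraries and families and are not independent. Of those with an unadjusted p under 0.05, the 19 lower at 24 h had a median GC content of 52.2% and the 9 higher one of 47.8%, against 47.8% over all 248. The length of the mature sequence correlated at r = -0.118 (rho -0.0935) across the 248 and at r = -0.03 (rho -0.0448) across the 197.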

How the data were processed

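The authors deposited 2 tables of raw counts, 1 row for each mature miRNA, without normalization. The names given to the tables point to sRNAbench (main, 413 named entries, plus 1 unnamed entry with 0 counts, left out) and Chimira (627 entries). The aligner and the build were not given in the sources used here, and edgeR is named in the submitters' processing notes. Columns named WT were assumed to be the α1ACT line, because 11 repeats is a normal allele, and columns named control the vector line. The 12 columns per table that belong to no listed sample were not used.

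Counts were fitted with edgeR 4.0.16 in R 4.3.3 (filterByExpr, TMM, 1 mean per group over all 23 libraries, robust quasi-likelihood test, Benjamini-Hochberg adjusted p under 0.05). The other 6 groups share the estimate of spread, because 6 h has 2 libraries, and the common biological coefficient of variation was 16.1%. Arm ratios, log2((5p + 0.5) / (3p + 0.5)), were fitted with limma 3.58.1, a comparison added after seeing the data. DESeq2 1.42.0 and limma-voom were alternatives. Steps were tested on simulated data. Reads were amplified without molecular identifiers, and counts therefore do not stand for single molecules. No pair of replicates differed by as little as sampling noise, with chi-square per degree of freedom between 37.3 and 142. The lowest was for 24 h replicates 1 and 3, of one let-7 naming class. The other pairs, at 87.96 or more, cross the classes.

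Candidates for naming were the called miRNAs, the 10 most abundant, and the 10 smallest p with a mean of at least 10 CPM (since fewer than 6 were called). Further candidates were up to 4 members of each of 29 lists and the 5 smallest p between the lines. MiRNAs sharing a hairpin or seed with these could be named beside them. Not every list is described in the text. The comparison and lists were chosen with earlier results of these data known. Alternatives were the other table, exchanged names, 3 scalings, 2 filters, 2 tools, a replicate block, the groups alone and leaving out each library. Added after seeing the data were leaving out both doubtful libraries, leaving out the shallowest, and summing the let-7 pair of identical sequence. Sequences came from RefSeq (GRCr8), with 248 of 269 tested miRNAs matched to 1 sequence.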

Additional observations from a re-analysis of the deposited data

How the results depend on the processing

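Of the 3 called miRNAs, the count by edgeR fell to 0 in the Chimira table as named (31 at an unadjusted p under 0.05), 0 with the doubtful pair exchanged in the sRNAbench table (25), 0 with both doubtful libraries left out (34) and 0 with the groups compared alone, where fewer libraries give the estimate of spread (36). With the pair exchanged in the Chimira table it was 3, the same miRNAs. Leaving out 1 library gave between 0 and 3 calls: 0 without 6 h replicate 2 (31 at an unadjusted p under 0.05), 1 each without 6 h replicate 1, 24 h replicate 1 or 24 h replicate 3. A replicate block gave 5 calls (miR-3099 and miR-879-5p added), but nothing says the numbers pair the libraries. In deviations from the group mean, same-numbered libraries correlated at r = 0.0428 and 0.322, and 24 h replicate 3 with 6 h replicate 1 at r = 0.248. With 2 libraries at 6 h these deviations mirror each other, so the correlations cannot decide on pairing. Other scalings, filters and tools gave between 2 and 4. The difference between the lines, 0 calls, was 2 with DESeq2 and between 0 and 3 when 1 library was left out, with 3 without α1ACT 6 h replicate 2. The 3 changed arm ratios became 0 with the sRNAbench pair exchanged, 5 with the groups alone, and between 0 and 4 without 1 library (0 without 6 h replicate 2, 1 without 6 h replicate 1), and remained 3 with the replicate block. The cause was not tested beyond these settings. Of 100 candidates for naming that were not called, 97 were called in none of 20 alternatives. Of these 100, 62 kept their sign in all and 38 changed it in at least 1. With 2 libraries at 6 h, small changes are hard to detect, and for scarce arms the counts limit precision.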

Other observations

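Some miRNAs have an entry that could be tested in the Chimira table alone. With the doubtful pair exchanged there, miR-335, encoded in the imprinted gene Mest, stood at 6338, 5820 and 5380 CPM at 24 h, against 4211 and 4901 CPM at 6 h. The groups did not overlap, and the log2 fold change of 0.36 was not called (edgeR adjusted p = 0.273). With the columns as named it was 0.35 (edgeR adjusted p = 0.469). The miR-15/16 guide miR-15a-5p stood at 1370, 1095 and 1365 CPM at 24 h, against 1279 and 1203 CPM at 6 h (0.04), and the miR-30 guide miR-30b-5p at 1516, 1414 and 1382 CPM at 24 h, against 1474 and 1233 CPM at 6 h (0.09). Both overlapped between the groups.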
